A study of Mus musculus with 10 samples.

Results

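The genes described here are 28 members of the cholesterol synthesis pathway and of the machinery that controls it through the sterol regulatory element-binding proteins (SREBPs). They were taken by symbol from count tables that list 32531 gene symbols, and all 28 symbols were found. The members fall into 8 early steps (Acat2, Hmgcs1, Mvk, Pmvk, Mvd, Idi1, Fdps and Ggps1), 11 late steps (Fdft1, Sqle, Lss, Cyp51, Tm7sf2, Msmo1, Nsdhl, Hsd17b7, Ebp, Sc5d and Dhcr7), 7 control genes (Srebf1, Srebf2, Scap, Insig1, Insig2, Mbtps1 and Mbtps2) and 2 genes of uptake and transfer (Lrp8 and Stard4).

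RNA came from the striatum of mice of the line Drd2-TRAP CP101, after self-administration of saline or of cocaine. TRAP (translating ribosome affinity purification) uses a tagged ribosomal protein, here pulled down through its EGFP tag, and the Drd2 promoter directs the tag to cells that express the dopamine D2 receptor. Indirect-pathway medium spiny neurons are the main such cells of the striatum, and cholinergic interneurons also use Drd2. Of the 10 libraries, 3 were immunopurified (IP) RNA of the saline group, with the replicate numbers 1, 2 and 4, and 5 were IP RNA of the cocaine group, numbered 1 to 5. The other 2 were a saline input library and a cocaine library of the unbound RNA that the beads did not retain, each without a replicate. All groups carry the same transgene. The labels give no age, and they do not say whether a library is 1 animal, a pool of animals or a repeat preparation. The p-values below therefore measure the spread between these libraries, which may be technical.

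In cells, acetyl units are joined and reduced to mevalonate and built up into isoprenoid diphosphates by the early steps, and farnesyl diphosphate is the branch point. The late steps condense it to squalene, close the sterol rings and trim lanosterol to cholesterol. SREBP2, encoded by Srebf2, is the main activator of these genes, while SREBP1, encoded by Srebf1, acts mainly on fatty acid genes. SCAP carries both from the endoplasmic reticulum to the Golgi, where the proteases encoded by Mbtps1 and Mbtps2 release the active fragment, and INSIG proteins hold SCAP back when sterols are plentiful. The blood-brain barrier keeps out circulating lipoproteins, so brain cholesterol is made locally, by glia and neurons.

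Gene reads ranged from 22975667 to 31631137 in the IP libraries and numbered 18408782 for the input and 20882691 for the unbound library. Members took 0.0682 to 0.0829% of the gene reads of an IP library. A count of 3 reads, the upper limit that a count of 0 allows, corresponded to 0.0936 to 0.134 CPM (reads per 1000000 gene reads, with library totals scaled by TMM over the 10 libraries) in the IP libraries. The purification was checked with marker lists. Each of the 8 markers of indirect-pathway neurons passed 2-fold upward, against the reference of its treatment, in each IP library, and each of the 10 astrocyte and 10 oligodendrocyte markers passed 2-fold downward. No marker was at 0 in every IP library. The pair of IP libraries numbered 1 (saline IP 1 and cocaine IP 1) stood apart in summed marker levels. The indirect-pathway markers summed to 8169 and 7074 CPM in the pair numbered 1 and 10086 to 13249 CPM in the other 6. Penk is the largest part of this sum, with 4545 and 3926 CPM in the pair and 7057 to 9165 CPM in the other 6. Gpr6, Ptprm and Grik3 were also lowest in the pair, while Adora2a, Gpr52, Sp9 and Drd2 were not. Drd2 read 2429 and 2062 CPM in the pair and 1623 to 2695 CPM in the other 6. The oligodendrocyte markers summed to 539.8 and 510.1 CPM in the pair numbered 1 and 233 to 396 CPM in the other 6. The astrocyte markers summed to 213 and 190.01 CPM in the pair numbered 1 and 58.5 to 184 CPM in the other 6. Of these, Aldoc read 61.3 and 72.1 CPM in the pair and 9.12 to 30.3 CPM in the other 6. Gja1 and Aldh1l1 were also highest in the pair, but the remaining astrocyte markers were not. Among those, Slc1a2 read 116.9 and 92.8 CPM in the pair and 39.4 to 130.2 CPM in the other 6.

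Stretches of 4 member promoters are shown because they hold sequence motifs on which SREBPs and E-box factors are known to act. The members differ in which of these they hold. A match is shown only where it and the bases around it lie upstream of every annotated start of its gene. Windows from 250 bases before to 50 bases after each RefSeq start (GRCm38.p6) were available for 24 of the 28 members, in 34 windows. Fdps, Fdft1, Sqle and Stard4 had no window and were not searched. The 3 motifs searched on both strands were the sterol response element form TCACNCCAC, the E-box CACGTG and the CCAAT box. Other forms of the sterol response element were not searched, so a member without a match may still hold one. Capitals mark the match to TCACNCCAC in Hmgcs1 and to CACGTG in the other 3, and each stretch is written 5′ to 3′ in the direction of the gene. The Hmgcs1 stretch is chr13:119690184-119690252 on the plus strand, the Hsd17b7 stretch chr1:169969313-169969378 on the minus strand, the Sc5d stretch chr9:42264363-42264428 on the minus strand and the Insig1 stretch chr5:28071281-28071346 on the plus strand.
Hmgcs1: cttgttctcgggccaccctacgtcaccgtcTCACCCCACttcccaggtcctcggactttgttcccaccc
Hsd17b7: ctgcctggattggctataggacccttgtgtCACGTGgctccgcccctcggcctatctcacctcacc
Sc5d: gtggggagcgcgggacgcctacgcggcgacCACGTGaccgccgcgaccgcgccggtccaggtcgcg
Insig1: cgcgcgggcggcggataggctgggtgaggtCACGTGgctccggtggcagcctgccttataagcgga
TCACNCCAC was found in a window of 1 member, Hmgcs1, which is 2.94% of the 34 member windows, and in 1.24% of the 32851 windows of all genes. CACGTG was found in windows of 5 members (Hsd17b7, Sc5d, Dhcr7, Scap and Insig1), in 17.6% of member windows and in 7.15% of all windows. The matches of Dhcr7 and Scap did not meet the condition for being shown. CCAAT was found in windows of 19 members, in 58.8% of member windows and in 37.4% of all windows. The shares count windows, of which a gene may have several, and none of the matches shown overlaps another of the searched motifs. Relative to the start site, the matches lie at -137, -143, -98 and -101 in the order shown. The Hsd17b7 stretch also holds a CCAAT match on the opposite strand, upstream of the capitals and left in lower case. The matches are descriptions of the sequence and were not tested for function.

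Levels between genes were compared per length, as CPM per kb of merged exon (GENCODE M21, GRCm38). Insig2, which encodes an endoplasmic reticulum anchor of SCAP, had the highest level over the saline IP libraries, 20.9 ± 6.20 CPM per kb (SD, n = 3), followed by Ggps1, the synthase of geranylgeranyl diphosphate, at 20.4 ± 1.79 CPM per kb, and Acat2, the cytosolic acetoacetyl-CoA thiolase, at 17.1 ± 2.001 CPM per kb. The ranges of these 3 genes over the saline IP libraries overlapped from one to the next. Next came Pmvk (13.3 ± 1.82 CPM per kb) and Hmgcs1 (12.8 ± 0.876 CPM per kb), which overlapped each other and lay below every value of Acat2. Among late steps the highest was Fdft1, squalene synthase, at 10.003 ± 0.543 CPM per kb. At the low end stood Lss (1.56 ± 0.215 CPM per kb), Dhcr7 (0.923 ± 0.303 CPM per kb), Tm7sf2 (0.655 ± 0.235 CPM per kb), Srebf1 (0.336 ± 0.0226 CPM per kb) and Idi1 (0.182 ± 0.0715 CPM per kb). Neighbours in this order did not overlap at 6 places, namely after Acat2, Hmgcs1, Sqle, Lss, Tm7sf2 and Srebf1. Srebf2 stood at 7.43 ± 1.33 CPM per kb, so the gene of the sterol-acting SREBP was at a higher level per kb than Srebf1 in each saline IP library.

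**Figure D1:**
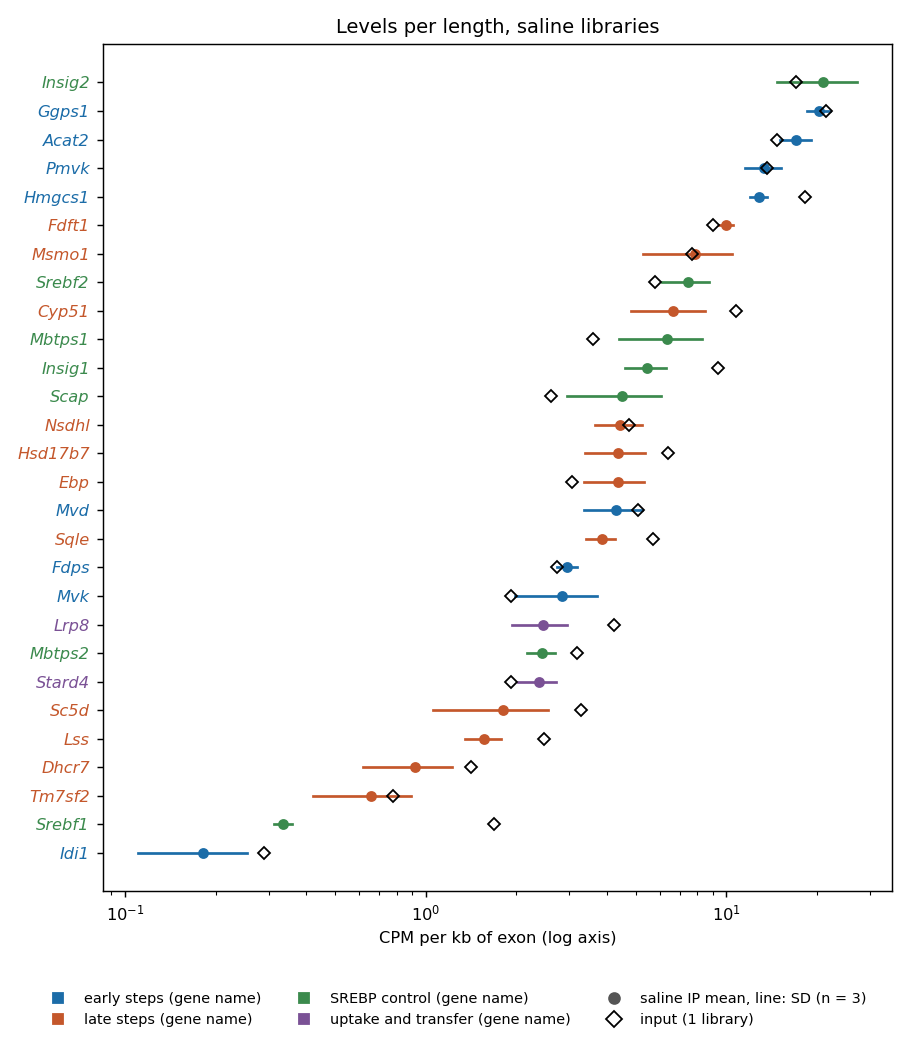
Level of each member in the saline libraries in CPM per kb of exon, on a log axis, ordered by the saline IP mean. Filled points are means of 3 IP libraries with lines of 1 SD, open diamonds the single input library, and gene names are coloured by pathway role; Srebf1 has its input diamond at 1.69 and its IP mean at 0.336 CPM per kb.

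Idi1, the isopentenyl diphosphate isomerase, was near the limit of measurement. It had 7 to 27 reads in the IP libraries (0.312 to 0.917 CPM), 21 reads in the input (1.02 CPM, 95% interval 0.629 to 1.55) and 16 in the unbound library (0.690 CPM). Its mean was under the 1 CPM asked of a ratio, so 27 of the 28 members were compared with the reference libraries. Intervals on read counts are exact (Clopper-Pearson) and cover counting error only.

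The question of the next comparison is how the pathway's transcripts in ribosome-bound RNA of the tagged cells relate to those of the whole tissue. For each IP library the log2 ratio of (CPM + 1) to the reference library was taken, the input for saline and the unbound library for cocaine. A gene was called when every IP library differed by at least 2-fold in the same direction. With 1 reference library these calls carry no test of their own, and a ratio on this scale understates the change of a gene of low level. By the labels both reference libraries were sequenced in lane 1 and the IP libraries in lanes 4, 6 and 7. Lane and fraction therefore cannot be told apart in these ratios. Of the 27 measured members, 1 was lower in the saline comparison, where 11.8% of 12894 genes were, and 0 were higher, where 1.45% of genes were. In the cocaine comparison 1 was again lower (9.85% of 12655 genes) and 0 were higher (3.73% of genes). The lower member was Srebf1 in both. In bulk RNA of this kind, fewer cells of a type and less RNA per cell cannot be told apart.

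Srebf1 (chr11:60199089-60222581, minus strand) read 1.81, 2.04 and 1.83 CPM in the saline IP libraries 1, 2 and 4 and 9.53 CPM in the input (197 reads, 95% interval 8.24 to 10.96 CPM). In the cocaine IP libraries 1 to 5 it read 2.43, 1.70, 2.01, 2.22 and 2.14 CPM, against 5.96 CPM in the unbound library (138 reads, 95% interval 5.003 to 7.04 CPM). All 8 IP values lay under both reference values, and the saline and cocaine IP ranges overlapped. The log2 ratios were -1.86 ± 0.06 (saline, SD, n = 3) and -1.17 ± 0.13 (cocaine, SD, n = 5). The cocaine call rested on a narrow margin, with cocaine IP 1 at -1.02. It was lost when TMM was computed over the libraries of that comparison alone, or with 5 CPM added in place of 1. Astrocyte and oligodendrocyte markers, summed, were also lower in the IP libraries, at 58.5 to 213 CPM against 2094 (input) and 1994 CPM (unbound) for astrocytes, and at 233 to 539.8 CPM against 5250.3 and 5579 CPM for oligodendrocytes. Markers of direct-pathway medium spiny neurons were lower as well, at 114 to 182 CPM against 863 and 723 CPM. So were the sums for microglia (3.32 to 9.51 CPM against 66.0 and 49.6) and oligodendrocyte precursors (4.64 to 13.8 CPM against 144 and 146). The endothelial sum was 0.751 to 2.85 CPM against 14.1 and 7.64 CPM. The part of any of these cells in the Srebf1 ratio was not tested.

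No other control gene was called. Scap (chr9:110333288-110384950, plus strand), the SREBP escort, read 21.2, 44.4 and 35.1 CPM in the saline IP libraries and 19.3 in the input, and 19.99, 33.2, 35.97, 28.5 and 29.3 CPM in the cocaine IP libraries and 11.3 in the unbound library. Every IP value exceeded its reference, with log2 ratios of 0.70 ± 0.53 (saline, SD, n = 3) and 1.28 ± 0.31 (cocaine, SD, n = 5), and the smallest excess was in the library numbered 1 of each group. In the annotation 13.2% of the exon bases of Scap also belong to 5830462I19Rik on the opposite strand, and whether the counting used strand is not given in the sources used here.

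Mbtps1 (chr8:119508156-119558735, minus strand), the Golgi protease that cuts SREBPs first, read 50.4, 89.8 and 60.5 CPM in the saline IP libraries against 37.97 in the input. In the cocaine IP libraries it read 42.9, 72.6, 64.6, 52.3 and 66.9 CPM against 36.4 in the unbound library. It lay above the reference in all 8 libraries, with ratios of 0.76 ± 0.42 (saline, SD, n = 3) and 0.68 ± 0.30 (cocaine, SD, n = 5). Srebf2 (chr15:82147181-82205379, plus strand) read 44.8, 63.7 and 51.5 CPM in saline IP and 41.5 in input, and 44.03, 62.01, 62.6, 51.2 and 46.4 CPM in cocaine IP and 38.8 in unbound RNA. Its ratios were 0.34 ± 0.25 (saline, SD, n = 3) and 0.43 ± 0.23 (cocaine, SD, n = 5). The second cleaving protease, Mbtps2, had ratios of -0.37 ± 0.15 (saline, SD, n = 3) and -0.27 ± 0.27 (cocaine, SD, n = 5), and in the annotation 28.4% of its exon bases are shared with Yy2 on the same strand.

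Insig1 and Insig2 gave mean ratios of opposite sign in both comparisons. Insig1 read 14.01, 19.2 and 17.3 CPM in the saline IP libraries, all below the 29.1 CPM of the input, and its ratio was -0.77 ± 0.22 (saline, SD, n = 3). In the cocaine IP libraries Insig1 read 11.6, 20.9, 18.5, 15.1 and 23.2 CPM against 23.2 in the unbound library, with 4 of 5 below it and cocaine IP 5 level with it, and a ratio of -0.39 ± 0.37 (cocaine, SD, n = 5). Insig2 read 51.1, 94.1 and 72.5 CPM in saline IP and 59.01 in input, and 62.9, 113, 104, 73.5 and 103 CPM in cocaine IP and 67.1 in unbound RNA. Its ratios were 0.25 ± 0.44 (saline, SD, n = 3) and 0.40 ± 0.36 (cocaine, SD, n = 5), and in each group the library numbered 1 alone lay below its reference.

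Among the early steps, Hmgcs1 (chr13:119690379-119708260, plus strand), the cytosolic HMG-CoA synthase that feeds mevalonate synthesis, was the member below its reference in all 8 IP libraries. It read 60.5, 54.3 and 61.8 CPM in saline IP against 83.5 in input, and 60.999, 51.7, 54.2, 76.8 and 67.6 CPM in cocaine IP against 82.9 in unbound RNA. The ratios were -0.50 ± 0.10 (saline, SD, n = 3) and -0.42 ± 0.23 (cocaine, SD, n = 5). Mvk, mevalonate kinase, lay above its reference in all 8, with 5.48, 10.1 and 7.26 CPM against 5.13 and 4.80, 4.87, 5.12, 7.22 and 5.35 CPM against 4.23. Acat2 was also above in all 8, with ratios of 0.20 ± 0.16 (saline, SD, n = 3) and 0.24 ± 0.16 (cocaine, SD, n = 5), and with libraries scaled by size alone its mean saline ratio was -0.0024. Acat2 has a close paralog, Acat3, and reads of the pair could be split by the counting.

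Fdps, which makes farnesyl diphosphate, gave different ratios against the 2 kinds of reference. It read 11.4, 12.6 and 13.3 CPM in saline IP against 11.5 in input, a ratio of 0.10 ± 0.11 (saline, SD, n = 3) that was -0.09 with library size alone, and 12.9, 13.1, 12.5, 12.8 and 10.4 CPM in cocaine IP against 6.34 in unbound RNA, a ratio of 0.86 ± 0.13 (cocaine, SD, n = 5). The IP levels of the 2 groups overlapped, while the intervals of the references, which differ in both treatment and fraction, did not, 11.5 CPM (238 reads, 95% interval 10.1 to 13.1 CPM) against 6.34 CPM (147 reads, 95% interval 5.36 to 7.46 CPM). In the annotation 26.7% of the exon bases of Fdps are shared with Gm43738 on the same strand. The remaining measured early members lay on both sides of their reference in the saline IP libraries, with mean ratios of -0.23 for Mvd, which decarboxylates mevalonate diphosphate, -0.07 for Ggps1 and -0.05 for Pmvk, the phosphomevalonate kinase.

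Among the late steps, Lss (chr10:76531588-76557138, plus strand), which closes the sterol rings to lanosterol, was lower in all 8 IP libraries. It read 17.6, 14.2 and 18.7 CPM in saline IP against 26.7 in input, and 18.2, 14.6, 15.5, 18.1 and 16.6 CPM in cocaine IP against 25.3 in unbound RNA. Its ratios were -0.65 ± 0.19 (saline, SD, n = 3) and -0.59 ± 0.13 (cocaine, SD, n = 5), short of 2-fold, with no overlap between IP and reference values. Hsd17b7, which takes part in removing the C4 methyl groups, was also below in all 8, with ratios of -0.55 ± 0.30 (saline, SD, n = 3) and -0.48 ± 0.13 (cocaine, SD, n = 5). Fdft1 was above in all 8, with ratios of 0.14 ± 0.08 (saline, SD, n = 3) and 0.42 ± 0.18 (cocaine, SD, n = 5), and with libraries scaled by size alone its mean saline ratio was -0.06. In the annotation 18.3% of Fdft1 exon bases overlap Ctsb on the opposite strand.

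A test of these ratios can be had only by assuming that the lone reference varies like the IP libraries. On that assumption an edgeR fit of all 10 libraries called 2 members lower than the input, where 20% of 16876 genes were, and 0 higher, where 13.9% were. The 2 were Srebf1, with a log2 fold change of -2.28 (SE 0.30, adjusted p = 3.7e-04), and Lss, with -0.62 (SE 0.22, adjusted p = 0.0448). Against the unbound library the same 2 were lower (23.8% of genes), Srebf1 at -1.51 (SE 0.28, adjusted p = 0.0017) and Lss at -0.62 (SE 0.20, adjusted p = 0.0305). Fdps, at 0.95 (SE 0.23, adjusted p = 0.0076), and Scap, at 1.37 (SE 0.39, adjusted p = 0.0154), were higher there (17.6% of genes).

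Cyp51, the lanosterol demethylase, Sc5d, the desaturase that makes 7-dehydrocholesterol, and Dhcr7, the reductase that acts on it, lay below the input in all 3 saline IP libraries and on both sides of the unbound library in cocaine. Cyp51 (chr5:4081145-4104746, minus strand) read 20.2, 35.03 and 33.1 CPM in saline IP against 47.4, and 20.4, 29.2, 42.9, 32.1 and 42.3 CPM in cocaine IP against 34.6. Sc5d read 4.69, 11.6 and 10.01 CPM against 15.96, and 6.52, 10.4, 12.2, 11.4 and 8.47 CPM against 9.02. For each of these genes saline IP 1 was the lowest of the saline values and cocaine IP 1 the lowest of the cocaine values. Sqle, the squalene epoxidase, followed the same order, with ratios of -0.55 ± 0.15 (saline, SD, n = 3) and 0.01 ± 0.17 (cocaine, SD, n = 5), the latter -0.17 with library size alone. Msmo1 and Nsdhl, which act on the C4 methyl groups, and Tm7sf2, a sterol reductase, lay on both sides of the reference in each comparison, and Ebp, the sterol isomerase, had ratios of 0.43 ± 0.32 (saline, SD, n = 3) and 0.52 ± 0.49 (cocaine, SD, n = 5).

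By role, the median log2 ratio of saline IP to input was -0.05 over 7 early members, -0.55 over 11 late members and 0.25 over 7 control genes, beside 0.10 over all genes. Of the late members, 6 were below the input in every saline IP library and 2 above it, and of the early members 1 was below and 2 above. Against the unbound library the medians were 0.19, 0.08 and 0.40, beside 0.16 over all genes. The saline late median was -0.33 without saline IP 1. The saline control median was 0.04 without saline IP 2, 0.46 without saline IP 1 and 0.05 with library size alone. The cocaine late median was 0.20 without cocaine IP 1 and -0.09 with library size alone, where the median of all genes was -0.01. Over all 27 measured members, 11 lay below the input in every saline IP library, as did 33.7% of genes, and 8 lay above, as did 42.9%. In cocaine 6 lay below the unbound library in every IP library (30.2% of genes) and 8 above (43.9%). Below the reference in all 8 IP libraries were 5 members (Hmgcs1, Lss, Hsd17b7, Srebf1 and Lrp8), where 24.6% of genes were, and above it in all 8 were 7 (Acat2, Mvk, Fdft1, Srebf2, Scap, Mbtps1 and Stard4), where 35.5% were. Both counts were near the background or under it and are no result about the members. They also moved with the scaling. With library size alone, which shifted the median ratio of all genes by -0.20 in saline and -0.17 in cocaine, 10 were below (31.5% of genes) and 1, Mbtps1, was above (24.5%).

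**Figure D2:**
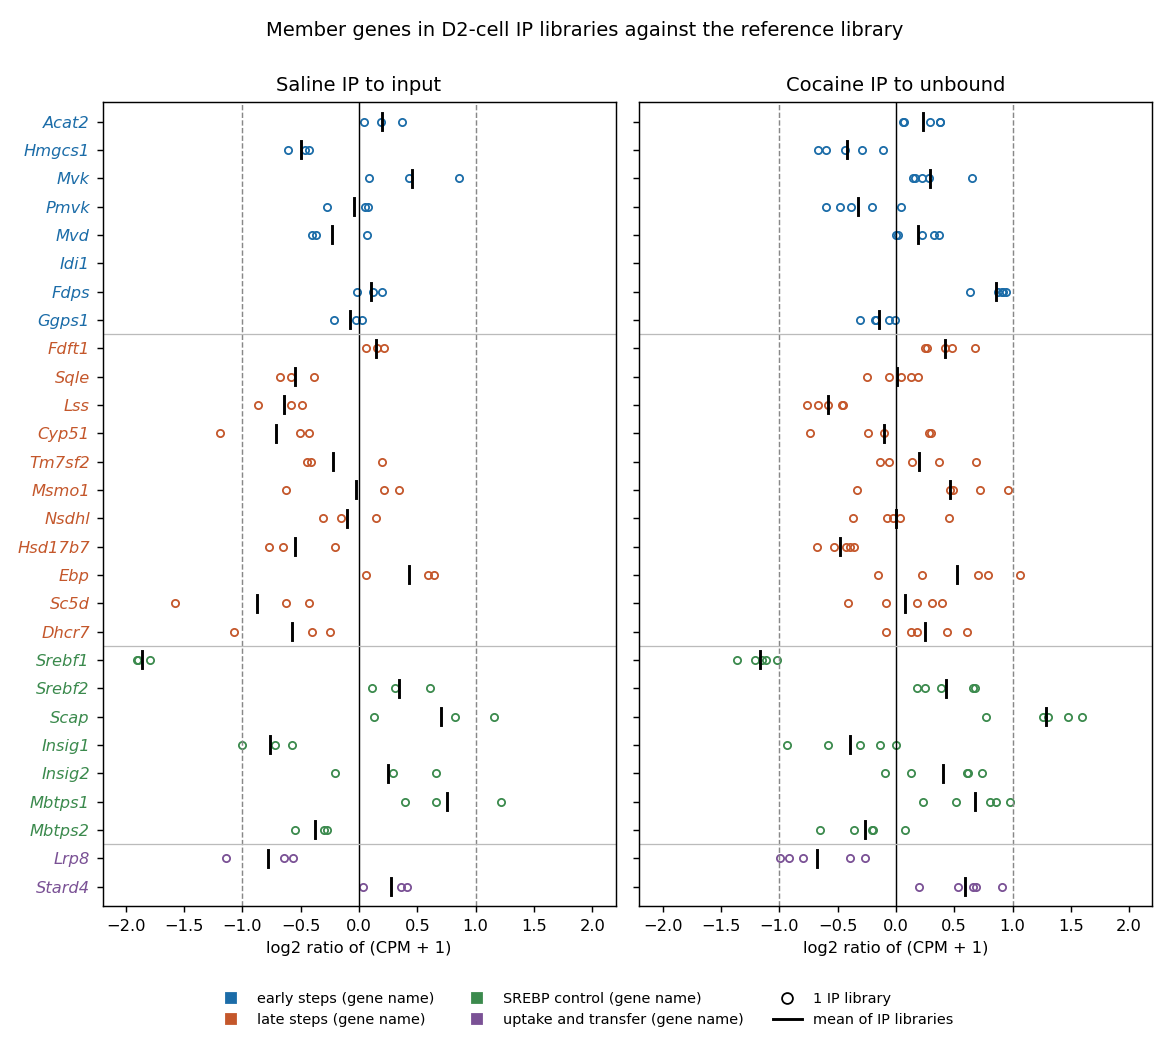
Log2 ratio of (CPM + 1) of each IP library to the input (left, 3 saline libraries) and to the unbound library (right, 5 cocaine libraries) for 27 members, with Idi1 left blank. Open circles are libraries, bars their mean, dashed lines mark 2-fold; Srebf1 is the only member whose circles all lie beyond the lower dashed line, in both panels.

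Of the uptake and transfer genes, Lrp8, a neuronal receptor for apolipoprotein E and reelin, read 19.6, 28.02 and 29.6 CPM in saline IP against 44.4 in input, and 22.8, 24.9, 33.3, 21.6 and 36.6 CPM in cocaine IP against 44.1 in unbound RNA. It was below in all 8 libraries, with ratios of -0.78 ± 0.31 (saline, SD, n = 3) and -0.67 ± 0.33 (cocaine, SD, n = 5). Stard4, a cytosolic sterol carrier, was above in all 8, with ratios of 0.27 ± 0.21 (saline, SD, n = 3) and 0.60 ± 0.26 (cocaine, SD, n = 5).

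Other genes of lipid metabolism were read in the same way. Of 15 measured fatty acid genes under SREBP1, 8 were at least 2-fold lower in every saline IP library and 7 in every cocaine IP library, beside 11.8 and 9.85% of all genes, with medians of -1.35 and -0.99. Scd1, a stearoyl-CoA desaturase, had ratios of -3.35 ± 0.39 (saline, SD, n = 3) and -3.07 ± 0.34 (cocaine, SD, n = 5), from 2.70 CPM in saline IP and 35.99 in input. Thrsp, a lipogenic regulator, had ratios of -2.81 ± 0.19 (saline, SD, n = 3) and -2.69 ± 0.22 (cocaine, SD, n = 5), and Fads2, a fatty acid desaturase, -2.45 ± 0.47 (saline, SD, n = 3) and -1.57 ± 0.22 (cocaine, SD, n = 5). Fasn, fatty acid synthase, was the 1 gene of the 15 above its reference in every IP library, at 0.46 ± 0.14 (saline, SD, n = 3) and 0.66 ± 0.31 (cocaine, SD, n = 5). The marker sums given with Srebf1 were also lower in the IP libraries than in the references, and their part in these ratios was not tested.

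Of 19 measured genes of cholesterol handling, 2 were lower in saline and 1 in cocaine, beside 11.8 and 9.85% of all genes, with medians of -0.17 and 0.37. These counts are near the background or under it and are no result about the list. Lipa, the lysosomal acid lipase, had ratios of -2.11 ± 0.21 (saline, SD, n = 3) and -1.85 ± 0.41 (cocaine, SD, n = 5). Soat1, which esterifies cholesterol, had -1.73 ± 0.45 (saline, SD, n = 3) and -0.29 ± 0.36 (cocaine, SD, n = 5), from 20.9 CPM in input and 11.3 in unbound RNA. Scarb2, a lysosomal membrane protein, had -1.05 ± 0.20 (saline, SD, n = 3) and -0.70 ± 0.24 (cocaine, SD, n = 5) and was not called. Of 14 genes listed for isoprenoid use and 12 listed for SREBP regulation at the endoplasmic reticulum, 0 passed in either direction in either comparison. Beside this, 11.8% of all genes were lower and 1.45% higher in saline, and 9.85 and 3.73% in cocaine. The list medians were 0.19 and 0.14 in saline and 0.45 and 0.42 in cocaine. Among isoprenoid users, Rabggtb and Fntb, subunits of prenyltransferases, had mean saline ratios of 0.60 and 0.46, and Dhdds, which makes dolichol precursors, 0.48. Of the genes listed for SREBP regulation, Sec24c, a coat protein of vesicles leaving the endoplasmic reticulum, stood at 0.52 in saline and 0.36 in cocaine. Hsd17b12 was in the same list, and a role of it in SREBP control was not tested. It stood at -0.59 ± 0.05 (saline, SD, n = 3), below the input in all 3 libraries, and at 0.44 ± 0.29 (cocaine, SD, n = 5), above the unbound library in all 5.

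Levels of many members differed among the IP libraries by replicate number. For 12 of 28 members (42.9%), saline IP 1 and cocaine IP 1 were the 2 lowest of the 8 IP libraries, which held for 15.8% of 13800 genes. The 12 were 6 of 11 late steps (Sqle, Cyp51, Msmo1, Ebp, Sc5d and Dhcr7) and 6 of 7 control genes (Srebf2, Scap, Insig1, Insig2, Mbtps1 and Mbtps2). None of the 8 early members and neither of the 2 uptake genes was among them. The pattern was noticed in these data, so the counts describe it and carry no test. The numbers 2 and 4 gave 1 member (8.62% of genes) and 2 members (3.83% of genes). With library size alone the count for number 1 was 10 of 28, beside 12.5% of genes, and Sqle and Mbtps1 dropped out.

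Msmo1 (chr8:64718139-64733792, minus strand), the methylsterol monooxygenase, showed the widest gap of the 12 in proportion, with 30.1 CPM in saline IP 1 and 29.003 CPM in cocaine IP 1, against 51.4 to 72.6 CPM in the other 6. Cyp51 read 20.2 CPM in saline IP 1 and 20.4 CPM in cocaine IP 1, against 29.2 to 42.9 CPM in the other 6. For both genes the other 6 libraries, from both treatments, lay clear of the pair. Scap read 21.2 CPM in saline IP 1 and 19.99 CPM in cocaine IP 1, against 28.5 to 44.4 CPM in the other 6, and Insig2 51.1 CPM in saline IP 1 and 62.9 CPM in cocaine IP 1, against 72.5 to 113 CPM in the other 6. Dhcr7 read 3.39 CPM in saline IP 1 and 3.80 CPM in cocaine IP 1, against 4.56 to 6.77 CPM in the other 6. Srebf2 gave a narrow gap, with 44.8 CPM in saline IP 1 and 44.03 CPM in cocaine IP 1, against 46.4 to 63.7 CPM in the other 6.

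The early steps did not follow. Hmgcs1 read 60.5 CPM in saline IP 1 and 60.999 CPM in cocaine IP 1, against 51.7 to 76.8 CPM in the other 6, within their range. Ggps1 was highest in the pair, with 103 CPM in saline IP 1 and 104 CPM in cocaine IP 1, against 84.4 to 101 CPM in the other 6, and it was the 1 member of 28 with both values above the rest, where 9.34% of genes were. Summed over the 11 late members, the level was 179 and 178 CPM in the pair and 219 to 259.9 CPM in the other 6. Over the 7 control genes it was 205 and 205 CPM against 252 to 339 CPM, and over the 8 early members 261 and 259 CPM against 229.7 to 256 CPM. Both the late and the control sums were lower in the pair than in any other IP library. The early sum is dominated by its most abundant genes, Ggps1 first. With members weighted equally, as the mean of log2 (CPM + 1), the early level of the pair was 4.11 and 4.14, inside the 3.995 to 4.188 of the other 6.

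**Figure D3:**
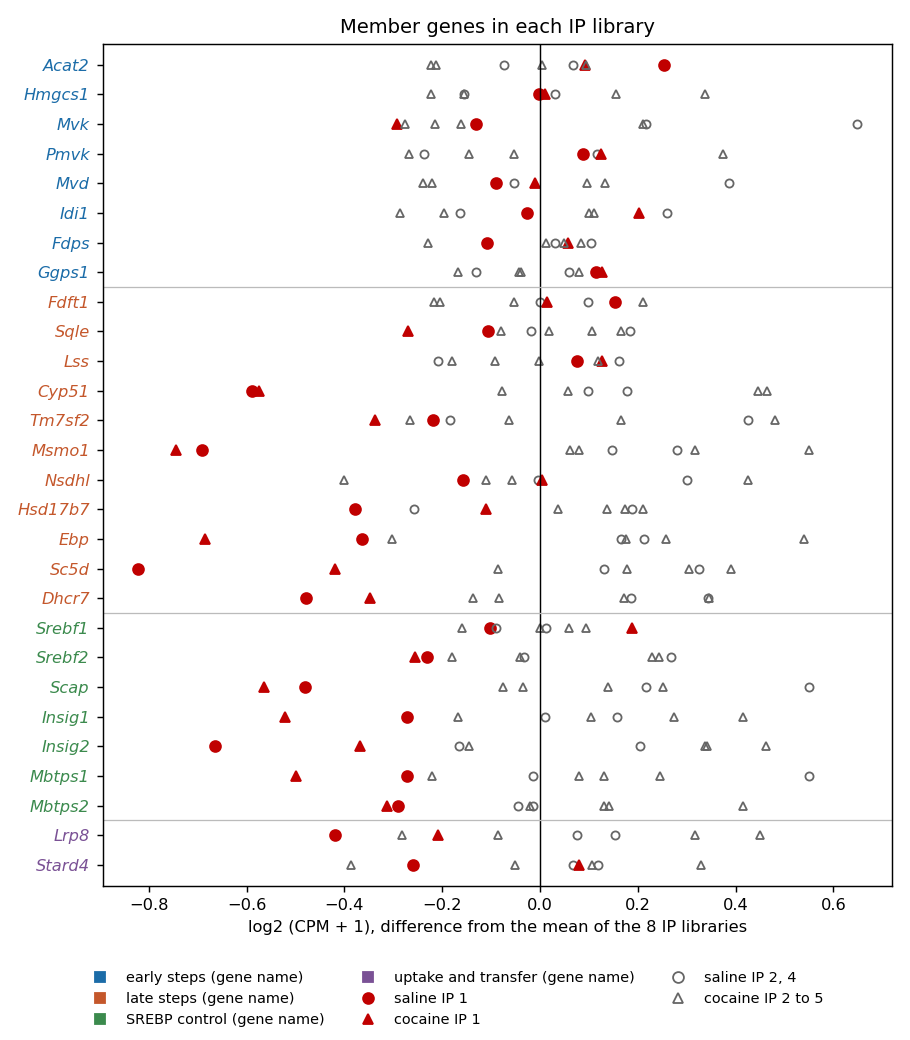
Difference of log2 (CPM + 1) in each of the 8 IP libraries from their mean, 1 line per member, with the pair numbered 1 filled in red (circle saline, triangle cocaine) and the other libraries open. Red symbols are leftmost for 12 members, all late steps or control genes, and rightmost for Ggps1.

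Other measures are set here beside the same pair and the genes lowest in it. Those genes were picked from these data, so the counts carry no test. Its indirect-pathway marker sums were the lowest of the 8 IP libraries, and its astrocyte and oligodendrocyte sums the highest, as given above. Single markers did not all follow their sum: Penk and Aldoc did, while Drd2 and Slc1a2 did not. Its TMM factors were 1.01 and 1.02 against 0.951 to 0.976 in the other IP libraries. The median merged exon length was 5.68 kb for the 12 members lowest in the pair and 4.32 kb for the other 16. Of the 12 members, 11 have a promoter window, as do 13 others. CACGTG, printed above for Sc5d and Insig1, was found for 4 of the 11 (Sc5d, Dhcr7, Scap and Insig1). It was found for 1 of the 13 (Hsd17b7) and for 8.09% of all genes with a window. A gene was counted when any of its windows held a match, and genes differ in their number of windows. CCAAT was found for 8 of 11 and 11 of 13, beside 41.1% of all genes. TCACNCCAC was found for 0 of 11 and 1 of 13, beside 1.44% of all genes. The part of these measures in the pattern was not tested. The pair was sequenced in different lanes by its labels, saline IP 1 in lane 7 and cocaine IP 1 in lane 6.

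Cocaine was compared with saline in the IP libraries, 5 against 3, with edgeR's quasi-likelihood test. Of the 28 members, 0 passed an adjusted p of 0.05, as did 0% of 13800 genes, and the smallest adjusted p of a member was 0.9998 (Benjamini-Hochberg). At an unadjusted p under 0.05 the count was 0 of 28, beside 2.14% of genes, and DESeq2 gave 0 adjusted and 1 unadjusted, Mvk. The log2 fold changes of cocaine over saline were positive for 14 members and negative for 14, with a median of 0.005 beside 0.006 over all genes. The medians were -0.04 for early, -0.01 for late and 0.10 for control genes. For 28 of 28 members the saline and cocaine ranges overlapped, while 2.31% of genes did not overlap. The median SE of a member in this fit, which does not pair the libraries, was 0.20 on the log2 scale.

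At the ends of the range stood Mvk and Insig2. Mvk (chr5:114444269-114460591, plus strand) read 5.48, 10.1 and 7.26 CPM in saline and 4.80, 4.87, 5.12, 7.22 and 5.35 CPM in cocaine, a log2 fold change of -0.46 (SE 0.21, 95% interval -0.99 to 0.06). Saline IP 2 was the highest value, and the saline value of IP 1 lay inside the cocaine range. Insig2, whose values are given above, had a log2 fold change of 0.34 (SE 0.22, 95% interval -0.19 to 0.87). Cocaine IP 1 lay under the highest 2 saline values. Both intervals include 0.

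Within the numbers that both groups share, cocaine was higher than saline for numbers 1, 2 and 4 in 2 members (Hsd17b7 and Insig2), where 12.1% of genes were, and lower in 7, where 15.6% were. Hsd17b7 read 18.6, 20.3 and 27.99 CPM in saline and 22.5, 25.1, 26.99, 28.4 and 27.7 CPM in cocaine, with a log2 fold change of 0.24 (SE 0.15, 95% interval -0.12 to 0.60). The 7 included Scap and Mbtps1, at -0.18 (SE 0.22, 95% interval -0.73 to 0.37) and -0.15 (SE 0.20, 95% interval -0.63 to 0.34). With the replicate number as a block, which keeps 3 libraries a group, 0 members passed an adjusted p of 0.05, with a smallest adjusted p of 0.758 by edgeR. At an unadjusted p under 0.05 the block gave 3 of 28, namely Scap (-0.26), Mbtps1 (-0.24) and Insig2 (0.20), beside 6.52% of genes.

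For the SREBP genes themselves, the log2 fold change was 0.16 (SE 0.23, 95% interval -0.40 to 0.73) for Srebf1 and 0.01 (SE 0.15, 95% interval -0.36 to 0.38) for Srebf2. Hmgcs1 gave 0.09 (SE 0.14, 95% interval -0.25 to 0.43) and Mbtps2 0.22 (SE 0.16, 95% interval -0.16 to 0.60). Of the 28 members, 23 changed sign in at least 1 of 16 alternative fits, and Acat2, Mvk, Fdft1, Srebf1 and Insig2 did not.

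**Figure D4:**
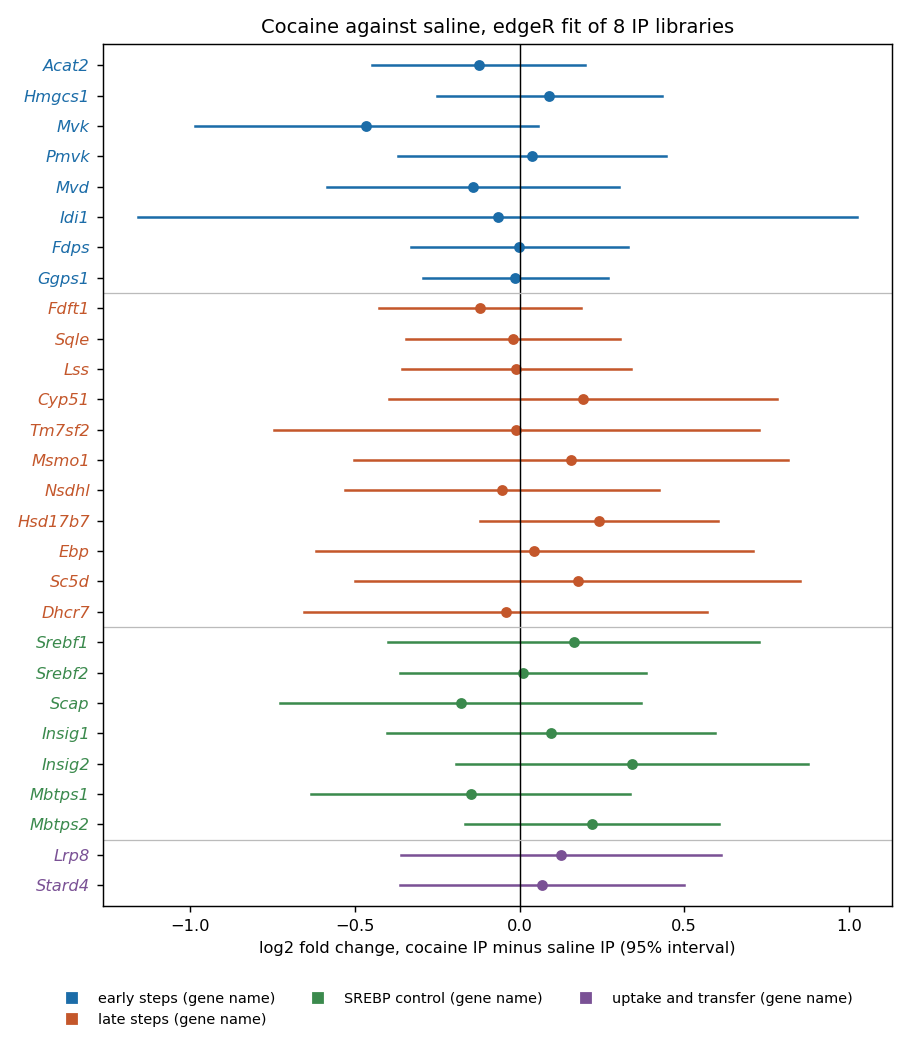
Log2 fold change of cocaine over saline IP for each of the 28 members (point) with its 95% interval (line) from the edgeR fit of 8 libraries, coloured by role. Every interval crosses 0; the points run from -0.46 (Mvk) to 0.34 (Insig2), and Idi1, with the fewest reads, has the widest interval.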

How the data were processed

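Ribosome-bound, input and unbound RNA of 10 libraries was analysed. The authors deposited raw counts per gene symbol, made with STAR 2.0.0e and HTSeq on mm10 per the submitters' processing notes; the annotation is not given in the sources used here, nor is any use of strand. Reads in no gene were 12.9 to 14.4% of an IP library and 25.5 and 27.4% of the input and unbound libraries, and ambiguous reads 3.42 to 3.95% and 7.33 and 7.34%; both were left out, as were rows that name no gene. No pair of replicates agreed within sampling noise.

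Counts were scaled to CPM with TMM over all 10 libraries. Log2 ratios to the lone reference used (CPM + 1), where the mean over the libraries compared reached 1 CPM, and a gene was called where every IP library passed 2-fold. Cocaine and saline were compared with edgeR 4.0.16 (glmQLFit and glmQLFTest, filterByExpr, TMM, Benjamini-Hochberg) in R 4.3.3, and DESeq2 1.42.0 was an alternative. The edgeR fit was also run on simulated counts of independent libraries. Those lack the deviations that libraries of 1 number share, so that run cannot show how the unpaired fit behaves with them. SE was taken from the fold change and its F statistic. Other alternatives were the added CPM, the filter, the scaling, the fold limit, lane, the replicate block and leaving out libraries. Precision is limited by 3 and 5 libraries and by the depths given above.

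The members and gene lists were chosen with earlier results of these data known. All members are named; of each other pathway list, the 3 genes with the largest saline ratio, of which 1 is not reported here. Fasn was added after its values were seen. The libraries that share a number deviated together: over 9679 genes of at least 5 CPM the correlation of deviations from the group means was 0.708, 0.627 and 0.321 for numbers 1, 2 and 4, so the replicate block was run as an alternative to the unpaired fit behind the fold changes, SEs and intervals, although what a number marks is not in the labels. Positions and exon lengths are from GENCODE M21 (GRCm38), the same assembly as mm10.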

Additional observations from a re-analysis of the deposited data

Results flagged for a closer look

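In the 5 cocaine IP libraries, 2 of the 28 members had a value far from the others by Dixon's criterion at 5 samples (critical value 0.71), which chance exceeds in about 1 in 20 groups. Mvk, mevalonate kinase, read 7.22 CPM in cocaine IP 4, with the other 4 libraries at 4.80 to 5.35 CPM. Fdps, farnesyl diphosphate synthase, read 10.4 CPM in cocaine IP 5, with the others at 12.5 to 13.1 CPM. Both values lie inside or next to the range of the saline IP libraries, 5.48 to 10.1 CPM for Mvk and 11.4 to 13.3 CPM for Fdps.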

How the results depend on the processing

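Each value was recomputed under the alternatives, and the cause of a change was not tested unless named. Srebf1 was the member called lower in both comparisons. In saline the count was 0 for genes of at least 5 CPM, because Srebf1 is under that mean, and 2 (Lss and Srebf1; 20% of genes) in an edgeR fit of all 10 libraries, which assumes that the lone reference varies like the IP libraries. In cocaine it was 0 with 5 CPM added, 0 for genes of at least 5 CPM, 0 with TMM over that comparison alone (an alternative chosen after seeing the data) and 2 (Lss and Srebf1; 23.8% of genes) in that edgeR fit. Members higher in cocaine numbered 2 with a 1.5-fold limit (Fdps and Scap; 13.6% of genes), 2 in the edgeR fit (the same pair; 17.6%) and 0 to 1 (Scap, without cocaine IP 1) when each library was left out in turn. The early median of saline was -0.25 with library size alone and -0.097 to 0.054 when each library was left out, and the late median -0.75 and -0.53 to -0.33. The early median of cocaine was 0.022 with library size alone and 0.047 without a filter. Over all genes, the 1521 lower and 187 higher in saline became 798 and 107 with 5 CPM added, 677 and 175 for genes of at least 5 CPM, 1823 and 70 with library size alone, 2230 and 1354 with a 1.5-fold limit, 3382 and 2342 in the edgeR fit, and had 338 higher without saline IP 1; the 1247 lower and 472 higher in cocaine became 769 and 293, 567 and 459, 1477 and 247, 1902 and 1715, and 4015 and 2977 in the same order, 1913 lower without a filter, and 705 higher without cocaine IP 1. Unadjusted calls between treatments, 295, ran from 126 in lane 6 to 913 with the replicate block.

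For cocaine over saline, 0 members passed under any of 16 alternatives by edgeR or DESeq2. The late median was -0.24 with lane as a covariate and -0.23 in lane 6 alone (1 saline and 2 cocaine libraries). Hmgcs1 turned to -0.12 and -0.11, Hsd17b7 to -0.22 and -0.22 and Mbtps2 to -0.14 and -0.13 under the same pair of fits. Scap turned to 0.066 and Mbtps1 to 0.11 without saline IP 2, and over all single libraries left out they ran from -0.43 and -0.32 to these values. Srebf2, close to 0 (-0.11 to 0.15 over those fits), turned to -9.3e-04 with library size alone, -0.016 with the replicate block, -0.018 for the same 6 libraries unblocked, -0.052 without both libraries numbered 1 (chosen after seeing the data), and -0.11, -0.027, -0.047 and -0.064 without saline IP 1, saline IP 4, cocaine IP 2 and cocaine IP 3. The replicate block changed no other call. Low reads limit Idi1 and, in the IP libraries, Srebf1. Lanes 7 and 4 each hold 1 treatment, so lane and treatment can be separated in lane 6 alone. Lane 1 holds both reference libraries and no IP library, so lane cannot be separated from fraction in the ratios.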

Other observations

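Within the 5 cocaine IP libraries, which share a treatment, the 3 from lane 4 lay above both from lane 6 for 7 of 28 members (Mvk, Sqle, Cyp51, Msmo1, Hsd17b7, Dhcr7 and Mbtps2), as did 11.1% of 13800 genes, and below both for 2 (Fdps and Ggps1), as did 10.9%. Of the 7, 5 are late steps. Cyp51 averaged 39.1 CPM in lane 4 and 24.8 CPM in lane 6, and Msmo1 62.1 and 40.2 CPM. Cocaine IP 1, one of the 2 from lane 6, was the lowest of the 5 for each of these 5 late members. The other, cocaine IP 2, read 29.2 CPM for Cyp51 beside 32.1 to 42.9 CPM in lane 4, and 51.4 CPM for Msmo1 beside 52.1 to 72.6 CPM.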
